A study of Mus musculus with 24 samples.

Results

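Inguinal white adipose tissue of 8 female mice was compared at postnatal day 28 (p28), 4 after delayed weaning (DW, animals 76, 77, 82 and 83) and 4 after standard weaning (SW, animals 73, 74, 75 and 81). The members are the libraries labelled female, p28 and DW or SW, 8 of the 24 in the series. DW pups were kept with the mother up to sampling, and SW pups were separated from her at day 21. Poly(A) RNA of each animal was sequenced as 1 library, so the replicates are separate animals. The labels name no strain, genotype, litter or body weight, and all groups share the tissue and the library kit. The other 16 libraries are females at p21 and males at p21, p28 SW and p28 DW, 4 each. For the 8 libraries taken as p21, the age label and library name give p21 while the title gives p28, and 1 title carries another animal number. These 16 entered the same model and so bear on the estimate of spread behind each p-value. The p28 males also enter a test of sex by weaning. Otherwise the 16 serve as reference values. The comparison asks how staying with the mother past day 21 changes this fat depot in females.

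The inguinal depot is the main subcutaneous fat of the mouse, and around weaning it grows by division of progenitor cells and by filling of adipocytes with lipid. Milk is rich in fat and chow is rich in carbohydrate. At weaning adipocytes shift from taking up milk fat to making fatty acids from glucose. In females the same pad holds the mammary gland, a tree of ducts with a luminal layer, which later makes milk, and a basal, contractile layer. Ducts grow under oestrogen, progesterone, prolactin and growth hormone around puberty. A lymph node lies in the pad and skeletal muscle lies against it.

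The libraries held 84973443 to 123859413 reads in the listed genes in DW and 113509617 to 148827611 in SW females, and 1 read was worth 0.00640 to 0.00972 normalised units, so that a value of 1 rests on over 100 reads. DW females 82 and 83 stood apart. The first principal component of the 8 females, with 59.8% of the variance, was 45.7 and 56.1 in animals 82 and 83 and between -30.3 and -6.79 in the other 6. Mitochondrial genes took 13.2% and 13.7% of the values in 82 and 83, 23.6% and 19.2% in 76 and 77, and 20.3% to 25.1% in SW females. Across genes, the deviation from the SW mean had a Spearman correlation with transcript GC content of -0.46 and -0.60 in 82 and 83, and 0.20 and 0.05 in 76 and 77. Among SW females, each set against the other 3, it ran from -0.56 to 0.49. Animal 81 is the 1 SW female in the run of animal numbers 81 to 87. What sets 82 and 83 apart was not tested. The main results are therefore given by animal or for both pairs, 76 with 77 and 82 with 83, against the 4 SW females.

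Defining markers of adipocytes were present in all 8 libraries. Summed over 12 genes they reached 27941 to 32127 normalised units in DW and 26228 to 33815 in SW females. Adipoq (adiponectin) was 1491, 1291, 1192 and 1186 in DW females 76, 77, 82 and 83, and 1236, 1466, 1312 and 1357 in SW females 73, 74, 75 and 81. The 2 groups overlapped and the change was -0.06 (SE 0.14, limma adjusted p 0.832). The same order of animals is kept below. Values are the authors' normalised units, not divided by gene length, so levels are compared between animals and not between genes. Changes are DW minus SW on the log2(value + 1) scale, which understates the changes of low genes and also their spread.

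Of 16005 tested genes, limma with Benjamini-Hochberg adjustment called 204 at an adjusted p under 0.05: 74 higher in DW females (0.462% of tested genes) and 130 lower (0.812%). In 363 genes (2.27%) all 4 DW values lay above all 4 SW values, and in 563 genes (3.52%) all lay below. Of the called genes, 179 were free of overlap and 25 were not. The edgeR test on recovered reads called 63 higher (0.394%) and 8 lower (0.05%), 68 of them shared with limma. The 2 tests thus split higher from lower calls differently. Limma on log2(value + 0.1) called 39 genes higher and 24 lower, so the excess of lower calls was not kept there. With DW females 82 and 83 left out limma called 0 genes higher (0%) and 7 lower (0.0437%), with 847 genes at an unadjusted p under 0.05. These 7 were Pak6, Proc, Kera, Hc, Mup19, Cxcl15 and Smim22, of which Cxcl15 and Smim22 are named after their values were seen. With values corrected for GC content it called 83 higher (0.519%) and 111 lower (0.694%), 147 of them shared with the uncorrected calls. Fitted to the 8 females alone, with their own spread, limma called 1 gene, Serpina3k, and 1666 genes were below 0.05 before adjustment. With scores of muscle, luminal and lymph node genes as covariates it called 8, of which 7 are among the 204: Prc1, Tpx2, Mup14, Hc, Pak6, Proc and Smim22. Luminal genes summed lower in every DW than in every SW female. This fit therefore takes out part of the weaning difference itself, and a lost call cannot tell tissue content from weaning.

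**Figure D1:**
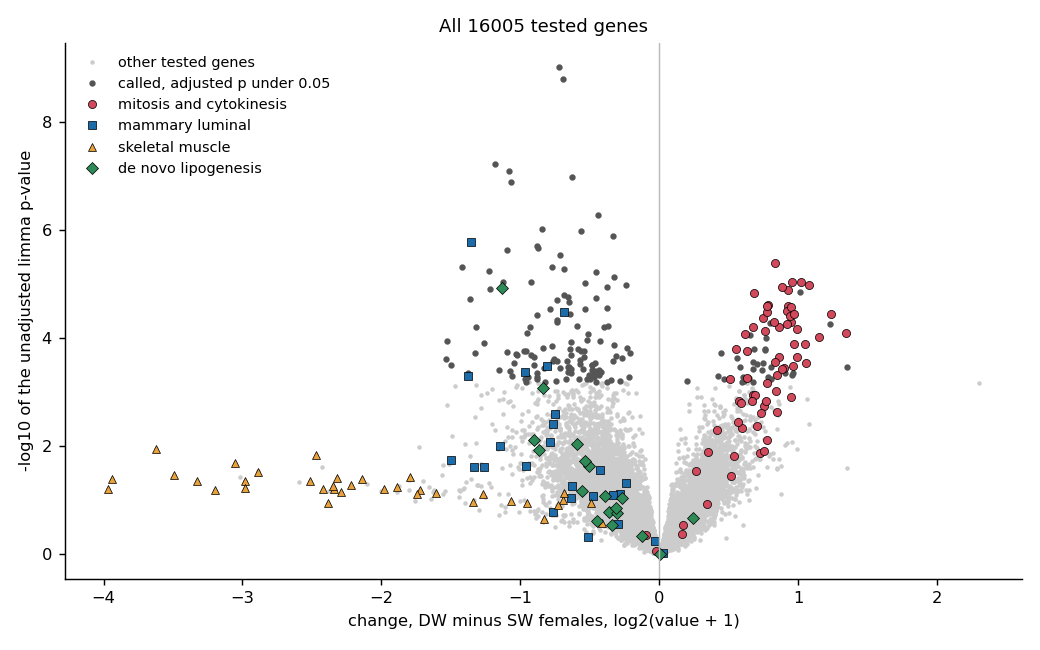
Each point is 1 of 16005 tested genes, by its change between DW and SW females on the log2(value + 1) scale (horizontal) and -log10 of its unadjusted limma p-value (vertical). Mitosis genes lie on the right, 41 of 69 called higher. Skeletal muscle genes lie far to the left with 0 of 36 called, and mammary luminal and lipogenic genes lie on the left with few calls.

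Genes of mitosis and cytokinesis, the machinery that separates chromosomes and then the daughter cells, made up most of the called rises. Of 69 listed genes, all of them tested, 41 were called higher in DW females and 0 lower (59.4% higher, against 0.462% of tested genes). Higher values without overlap were found in 53 of the 69 (against 2.27% of tested genes). The median change was 0.77, against -0.02 over all tested genes. It was 0.52 in animals 76 and 77, with 68 of 69 genes above the SW mean, and 1.07 in animals 82 and 83, with 66 of 69. Without 82 and 83, 0 of the 69 passed the adjusted threshold and 53 had an unadjusted p under 0.05. The edgeR test called 38 of the 69 and the GC-corrected fit 44. In males, DW against SW, the list's median change was 0.79. The fit with tissue scores, which takes out part of the weaning difference itself, called 2 of the 69 and that of the 8 females alone 0.

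Several genes for spindle and motor proteins of dividing cells rose, with both DW pairs above the SW mean. Those named here were picked for no overlap and by their smaller pair change, so this follows from the choice. Prc1 (chromosome 7, 79944198 to 79966007, as deposited), which bundles microtubules in the central spindle, was 19.1, 25.2, 32.5 and 28.7 in DW and 13.4, 11.2, 11.7 and 10.9 in SW females. All DW animals lay above all SW animals, the mean was 2.24 times as high, and the change was 1.08 (SE 0.19, limma adjusted p 0.00574), 0.85 in 76 and 77 and 1.31 in 82 and 83. Tpx2 (chromosome 2, 152689884 to 152737241), a spindle assembly factor that activates Aurora A kinase, was 21.7, 24.7, 27.5 and 24.7 in DW and 17.2, 11.1, 13 and 12.8 in SW females. Its change of 0.83 (SE 0.14, limma adjusted p 0.00402) was 0.75 in 76 and 77 and 0.92 in 82 and 83. Ckap2l, a spindle protein, was 12.7, 14.5, 13.3 and 12.5 in DW and 7.25, 5.52, 6.73 and 7.47 in SW females. Both DW pairs were about equally high, by 0.92 and 0.85 (limma adjusted p 0.00584). The motor gene Kif20a of cytokinesis changed by 0.69 and 0.83 in the 2 pairs (limma adjusted p 0.0155). Mki67, the usual marker of cycling cells, was 78.8, 107, 99.5 and 95.5 in DW and 71, 57.7, 57.5 and 50.7 in SW females. It was 1.61 times as high by means (change 0.68, limma adjusted p 0.0137), with the lowest DW animal, 76, near the highest SW animal, 73.

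The kinase and cyclins that drive entry into mitosis had their highest values in animals 82 and 83. Cdk1, the mitotic kinase, was 7.48, 8.32, 27.3 and 20.6 in DW and 5.43, 4.27, 4.7 and 5.02 in SW females. It lay 0.61 above the SW mean in 76 and 77 and 2.08 in 82 and 83 (change 1.34, SE 0.28, limma adjusted p 0.0164). Its partner Ccnb1 was 4.91, 5.95, 14.5 and 12.3 in DW and 3.76, 2.4, 3.3 and 2.99 in SW females, with pair changes of 0.65 and 1.82 (limma adjusted p 0.0104). Ccnb2, the second B cyclin, was 6.11, 7.79, 9.51 and 8.21 in DW and 4.45, 2.65, 3.47 and 3.81 in SW females, and changed by 0.80 and 1.11 (limma adjusted p 0.00561). In each of the 3 genes the groups did not overlap, which the rule that picked them required, and animals 76 and 77 held the 2 lowest DW values. Top2a, the topoisomerase that untangles chromosomes, changed by 0.61 in 76 and 77 and 1.44 in 82 and 83 (limma adjusted p 0.00561), and Ccna2 by 0.60 and 1.30 (limma adjusted p 0.0131). Hmmr, Anln, Aspm and Ckap2, which act at spindle and cleavage furrow, rose by 0.99, 1.05, 0.84 and 0.97 (limma adjusted p 0.0147, 0.0231, 0.0347 and 0.0104). Their pair changes were 0.62, 0.61, 0.61 and 0.63 in 76 and 77, and 1.37, 1.49, 1.07 and 1.32 in 82 and 83. Pbk, Bub1 and Cdkn3, which act in mitotic signalling, the spindle checkpoint and the control of Cdk1, rose by 1.15, 1.05 and 0.68 (limma adjusted p 0.0189, 0.0347 and 0.0064). In 76 and 77 these 3 changed by 0.49, 0.48 and 0.46, and in 82 and 83 by 1.80, 1.62 and 0.90. For Bub1, DW female 76 overlapped the SW values. Securin, Incenp and Plk1 overlapped between the groups and were not called. Securin (Pttg1) was 31.2, 28.2, 32.4 and 24.5 in DW and 32.1, 30.4, 29.2 and 32.3 in SW females, and Incenp of the chromosomal passenger complex was 28.8, 31.1, 21.7 and 15.2 and 25.5, 20.2, 24.4 and 25.6. Plk1, another mitotic kinase, was 8.08, 10.1, 5.27 and 4.01 in DW and 5.22, 5.4, 6.21 and 5.98 in SW females: 76 and 77 lay above the SW animals and 83 below them (limma adjusted p 0.667). Foxm1, a transcription factor of the G2 phase, had no overlap and was not called (change 0.57, limma adjusted p 0.0745).

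**Figure D2:**
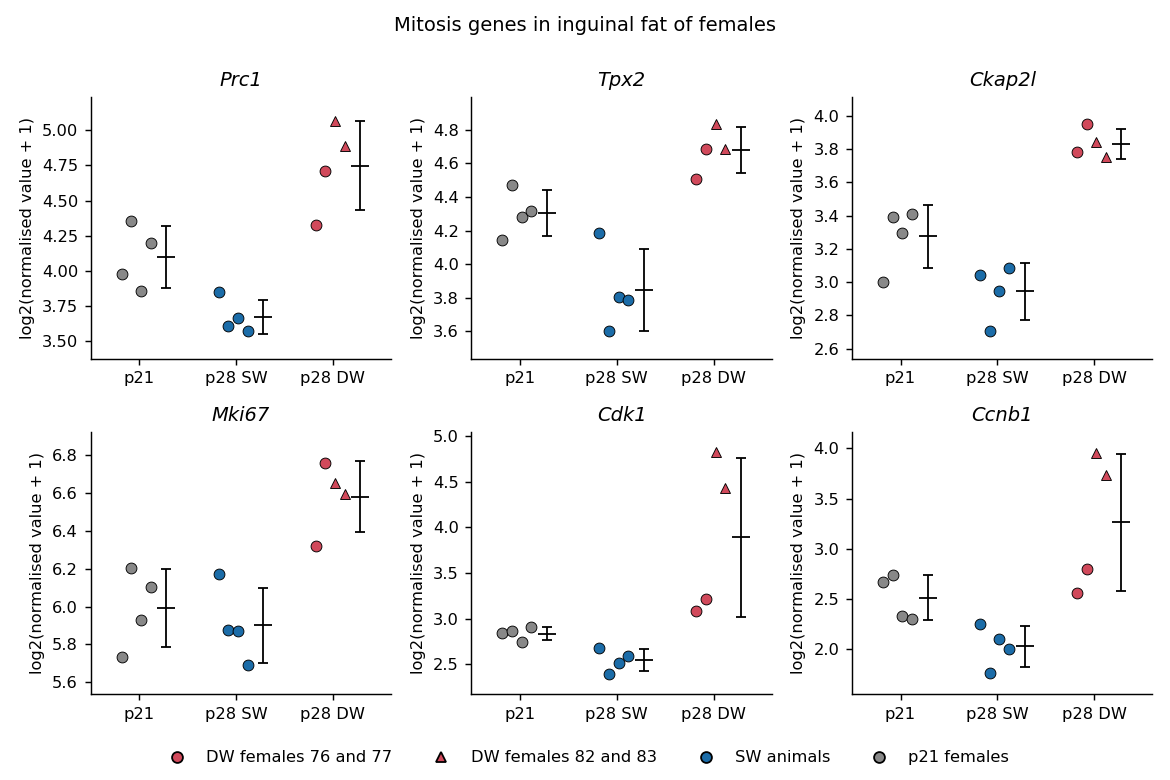
Points are single females (log2 of the normalised value + 1, vertical) at p21, p28 SW and p28 DW, with the mean and SD of each group of 4 beside them. In all 6 genes the 4 DW animals lie above the 4 SW animals, and in Cdk1 and Ccnb1 animals 82 and 83 (triangles) lie well above 76 and 77.

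Mitosis genes share known promoter elements, the CHR (cell cycle genes homology region) and the CCAAT box, so the promoters of Cdk1, Ccnb1 and Ccnb2 are shown. They run from 250 bases before to 50 after the start site, from RefSeq (GRCm38.p6), on the minus strand in each case and written 5′ to 3′ in the direction of the gene. Capitals mark the CHR (TTTGAA or TTCGAA) and the CCAAT box (CCAAT), each on either strand, and no marked stretches overlap.
Cdk1 (chr10:69352863-69353162): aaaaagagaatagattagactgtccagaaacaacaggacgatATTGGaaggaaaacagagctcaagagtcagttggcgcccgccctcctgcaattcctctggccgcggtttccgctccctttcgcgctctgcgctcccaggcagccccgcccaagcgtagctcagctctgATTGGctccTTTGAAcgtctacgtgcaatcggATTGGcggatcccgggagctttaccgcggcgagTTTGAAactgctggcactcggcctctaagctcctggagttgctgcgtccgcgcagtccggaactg
Ccnb1 (chr13:100786437-100786736): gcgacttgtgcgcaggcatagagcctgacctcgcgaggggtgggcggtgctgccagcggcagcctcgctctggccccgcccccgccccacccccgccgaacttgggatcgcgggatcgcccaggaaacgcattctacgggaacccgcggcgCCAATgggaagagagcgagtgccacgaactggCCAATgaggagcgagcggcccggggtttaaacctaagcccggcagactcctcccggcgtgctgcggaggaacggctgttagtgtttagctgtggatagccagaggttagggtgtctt
Ccnb2 (chr9:70421505-70421804): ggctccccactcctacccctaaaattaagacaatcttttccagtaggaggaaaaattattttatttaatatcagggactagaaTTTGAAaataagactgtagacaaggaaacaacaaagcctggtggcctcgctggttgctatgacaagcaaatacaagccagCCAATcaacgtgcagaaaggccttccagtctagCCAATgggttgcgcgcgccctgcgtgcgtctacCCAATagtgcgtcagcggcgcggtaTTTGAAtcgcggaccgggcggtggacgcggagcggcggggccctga
The Cdk1 window holds 2 CHR matches, starting at -71 and -15 from the start site, and 3 CCAAT boxes. The Ccnb2 window holds 2 CHR matches, at -167 and 5, and 3 CCAAT boxes, and the Ccnb1 window holds 0 and 2. Of the 69 mitosis genes 57 had a promoter in the table. A CHR match was in 43 of these 57 (75.4%), in 28 of the 35 called ones (80.0%), in 7 of 40 promoters of the replication list (17.5%), in 14.5% of the 12458 promoters of tested genes and in 19.4% of all 27025. A CCAAT box was in 70.2% of the mitosis promoters, 57.5% of the replication promoters and 37.9% of all, and both were in 61.4%, 15.0% and 7.70%. These are counts of letters in a window and were not tied to the changes by a test.

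DNA replication and S phase genes, which copy the genome before mitosis, had mostly higher values in DW females. Of 52 genes tested, 1 was called higher (1.92%, against 0.462% of tested genes) and 0 lower, 8 lay higher without overlap (against 2.27% of tested genes), and the median change was 0.33 (0.16 in 76 and 77, 0.49 in 82 and 83). The difference between the 2 lists was not tested. The called gene was Brca1, of DNA repair, with 4.23, 5.39, 7.57 and 8.21 in DW and 4.17, 3.48, 3.42 and 3.31 in SW females. Animal 76 lay just above the highest SW female (limma adjusted p 0.0467). The edgeR test called 2 of the 52. Rrm2, a subunit of ribonucleotide reductase, was 7.2, 9.25, 25.3 and 18.2 in DW and 7.3, 5.36, 7.26 and 6.2 in SW females (change 0.94, limma adjusted p 0.0563, edgeR adjusted p 0.0342). Here animals 76 and 77 were near the SW level and 82 and 83 were far above it. The replication clamp Pcna was 44.9, 46.8, 70.4 and 61.3 in DW and 41.2, 37.5, 43.2 and 42 in SW females, free of overlap and not called (limma adjusted p 0.101). The helicase subunit Mcm2 was 14.6, 15.5, 16.8 and 11.8 in DW and 12.1, 11.2, 13.1 and 14.5 in SW females, with overlap (limma adjusted p 0.464). Against p21 females the mitosis list had a median change of -0.21 in SW and 0.56 in DW, and the replication list -0.36 and -0.05; these share the p21 animals. Summed mitosis values were 763, 915, 1199 and 1087 in DW and 669, 535, 598 and 569 in SW females, and 613 to 767 at p21. Summed markers of immune cells, which may also divide in the pad, overlapped between the groups. Of their genes, 0 of 16 lymph node and B cell, 0 of 22 T cell and 0 of 23 macrophage genes were called. In DW 1 macrophage gene lay lower without overlap (against 3.52% of tested genes). Their sums were 834 to 1425 in DW and 849.9 to 1542 in SW for B cells, 737 to 973 and 589.6 to 993 for T cells, and 1209 to 1512 and 1091 to 1354 for macrophages. Such sums do not show how many of these cells divide, and the part of immune cells in the mitosis values was not tested. In whole tissue, a change in the number of cells of a type and a change in RNA per cell cannot be told apart, which holds for all values here.

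Outside the cell cycle, Nnat (chromosome 2, 157401998 to 157404442) rose by like amounts in both pairs. It is a paternally expressed imprinted gene that codes for neuronatin, a small membrane protein of the endoplasmic reticulum. It was 346, 289.6, 269.9 and 330.1 in DW and 76.2, 139.9, 171 and 115 in SW females, 2.46 times as high by means. All DW values were well above all SW values, and the pair changes were 1.39 and 1.30 (change 1.35, SE 0.32, limma adjusted p 0.0381, edgeR 0.0768). At p21 it was 497 ± 259 (SD, n = 4). Of the 22 tested genes of the imprinted growth network, Nnat was the 1 called higher (against 0.462% of tested genes). Rasgrf1, an activator of Ras that is also imprinted, was the 1 called lower (against 0.812%). It changed by -1.04 (-0.74 and -1.35 by pair, limma adjusted p 0.0347). Slc6a13, a transporter of GABA and taurine, was 6.8, 6.92, 11.5 and 10.3 in DW and 2.62, 3.82, 3.03 and 3.09 in SW females, and 9.63 ± 2.37 (SD, n = 4) at p21. Its change was 1.23 (SE 0.25, limma adjusted p 0.0136), 0.93 and 1.53 by pair. Alb (albumin) was 34.9, 35.4, 59.6 and 53.4 in DW and 19.5, 15.7, 21.4 and 32.5 in SW females (change 1.02, limma adjusted p 0.0064); SW female 81 was close below DW female 76. Leptin (Lep), the adipocyte hormone, was 212, 291, 278 and 237 in DW and 162, 124, 151 and 120.4 in SW females, free of overlap, with pair changes of 0.84 and 0.89, and was not called (limma adjusted p 0.203). Pparg, the master regulator of adipocytes, was 179, 205, 177 and 168 in DW and 123, 115, 131 and 124 in SW females, also free of overlap and not called (limma adjusted p 0.0872). Sncg (gamma-synuclein) was 359.7, 327, 202 and 194 in DW and 119.8, 95.4, 131 and 157 in SW females (change 1.07, limma adjusted p 0.0714). For Sncg animals 76 and 77 were the high ones.

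Genes of the luminal mammary epithelium had lower values in DW females, and 5 of the 25 tested were called lower (Krt7, Cldn3, Cldn4, Cldn7 and Ehf) and 0 higher, against 0.812% of all genes called lower. In 14 the DW values all lay below the SW values (against 3.52% of tested genes), and 24 of 25 changes were negative. The median change was -0.75, -0.45 in animals 76 and 77 and -0.96 in 82 and 83. The list summed to 485, 452, 276 and 308 in DW, 672, 529.9, 674 and 707 in SW and 138 to 332 in p21 females. Every SW female lay above every DW female, and animals 82 and 83 were lowest, within the p21 range. The edgeR test called 0 of the 25, and without 82 and 83 limma called 0, with 5 at an unadjusted p under 0.05. With GC-corrected values 3 were called lower, and Cldn4 and Cldn7 lost their call (limma adjusted p 0.114 and 0.0728). The fit with tissue scores, of which luminal genes are 1, called 0 lower and 1 higher.

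Claudins seal the junctions between epithelial cells. Cldn3 (chromosome 5, 135015068 to 135016326) was 1.53, 1.69, 0.269 and 0.208 in DW and 2.45, 3.1, 3.78 and 5.66 in SW females. Its change was -1.36 (SE 0.21, limma adjusted p 0.00237, edgeR 0.198), -0.82 in 76 and 77 and -1.90 in 82 and 83. Cldn4 was 4.54, 4.72, 4.24 and 3.76 in DW and 8.15, 6.64, 7.4 and 11.7 in SW females (limma adjusted p 0.0375), and Cldn7 was 1.55, 1.24, 0.98 and 0.925 and 2.51, 2.6, 2.4 and 2.38 (limma adjusted p 0.01). In all 3 claudins the groups did not overlap and both pairs were low. Krt7, a keratin of ducts, was 11.9, 11.6, 3.46 and 4.19 in DW and 20.2, 15, 21.1 and 22 in SW females (change -1.38, limma adjusted p 0.046). The main luminal keratins also had all DW values below all SW values, with animals 82 and 83 lowest. Krt8 was 41.1, 34.1, 11.5 and 12 in DW and 61.5, 52.7, 59.3 and 74.9 in SW females, and Krt18 was 42, 31.5, 16 and 16.7 and 71, 54.2, 60.9 and 68. Neither was called (limma adjusted p 0.204 and 0.218), with changes of -1.50 (SE 0.58) and -1.33 (SE 0.55). Epcam, an epithelial adhesion protein, was 23.7, 20.9, 10.8 and 12.3 in DW and 43, 28, 41.3 and 36.9 in SW females (limma adjusted p 0.169). The transcription factor Ehf of epithelial cells was 10.7, 9.53, 5.5 and 9.83 in DW and 18.7, 14.7, 18.9 and 19.8 in SW females (limma adjusted p 0.0422). Milk protein genes were not called. Lalba, alpha-lactalbumin, was 0.851, 0.53, 0.98 and 0.519 in DW and 1.6, 1.35, 1.19 and 1.07 in SW females, lower without overlap (pair changes -0.45 and -0.40, limma adjusted p 0.224). Csn3 was 44.9, 49.6, 34.9 and 32.5 in DW and 71.6, 40.7, 61.2 and 60.1 in SW females, with overlap (limma adjusted p 0.715), and Csn2 stayed under 0.3 in all 8 animals.

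Of 23 basal and myoepithelial genes tested, 1 was called lower and 4 lay lower without overlap (against 0.812% and 3.52% of tested genes). The median change was -0.36 (-0.06 in 76 and 77, -0.66 in 82 and 83). The called gene was Krt15, a basal keratin, at 0.448, 0.764, 0.64 and 0.595 in DW and 1.34, 1.38, 1.97 and 2.56 in SW females (change -0.79, limma adjusted p 0.00936, edgeR 0.483). Its 2 pairs were equally low, by -0.79 and -0.78. Krt5 was 4.51, 5.96, 2.44 and 2.97 in DW and 6.6, 6.99, 7.65 and 12.1 in SW females, without overlap (limma adjusted p 0.244), and Krt14 was 2.1, 3.36, 1.48 and 1 and 2.09, 2.68, 2.97 and 4.63, with overlap. Oxtr, the oxytocin receptor of contractile cells, was 24.9, 26.3, 34.4 and 32.1 in DW and 90.0, 71.5, 55.7 and 76.2 in SW females. All DW values were under the lowest SW value (change -1.28, limma adjusted p 0.0879). In males Oxtr was also lower in DW, at 14.0 to 18.8 against 24.1 to 42.2 in SW (change -1.02). Its lower values were thus not particular to females.

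Among 14 genes of the steroid and prolactin pathways, 1 was called lower and 3 lay lower without overlap (against 0.812% and 3.52% of tested genes). Gata3 (chromosome 2, 9861889 to 9894845), a transcription factor needed for luminal cells and also active in preadipocytes and T cells, was 25.6, 24.6, 9.4 and 10.8 in DW and 45.4, 40.3, 37.1 and 49.3 in SW females. The mean was 2.45 times as high in SW females, with no overlap (change -1.36, SE 0.25, limma adjusted p 0.00745, edgeR 0.0276), and the pair changes were -0.75 and -1.98. The oestrogen receptor Esr1 was 58, 56.8, 82.4 and 77.7 in DW and 62.8, 87.3, 59.4 and 60.2 in SW females, with overlap (limma adjusted p 0.96). The progesterone receptor Pgr was 5.49, 7.15, 4.02 and 8.05 in DW and 11.6, 10.1, 14.1 and 6.64 in SW females, also with overlap (limma adjusted p 0.214). Prlr, the prolactin receptor, was 51.6, 53.8, 50.4 and 66.8 in DW and 76.6, 62.8, 65 and 69.5 in SW females (limma adjusted p 0.534). Cish, a target of prolactin and growth hormone signalling, was 29.8, 37.9, 5.6 and 2.85 in DW and 12.3, 10.0, 5.28 and 7.8 in SW females: 76 and 77 were the 2 highest and 83 the lowest of the 8.

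Genes of low value, several of them known from epithelia, were lower in both DW pairs. Apart from Ido1 they were picked for no overlap and by their smaller pair change, so this follows from the choice. Elf3, an epithelial transcription factor, was 2.63, 2.27, 1.67 and 1.4 in DW and 5.45, 4.29, 5.08 and 6.69 in SW females (change -1.10, limma adjusted p 0.00266). Slc5a5, the iodide transporter that supplies milk with iodide, was 7.57, 7.14, 4.75 and 3.86 in DW and 15.2, 11, 12.9 and 20.5 in SW females (change -1.22, limma adjusted p 0.00447). Sprr1a, an envelope protein of squamous epithelium, was 1.32, 0.575, 0.206 and 0.34 in DW and 4.22, 1.39, 4.27 and 3.58 in SW females (change -1.42, limma adjusted p 0.00429). In SW female 74 it was only just above DW female 76. Ido1, which breaks down tryptophan, was 1.58, 1.63, 1.08 and 1.48 in DW and 4.79, 2.76, 3.01 and 3.6 in SW females (limma adjusted p 0.00259). Hc, complement component C5 (chromosome 2, 34873343 to 34951450), was 1.76, 2.14, 1.1 and 1.79 in DW and 6.85, 4.35, 4.95 and 4.37 in SW females, with pair changes of -1.04 and -1.32 (change -1.18, SE 0.15, limma adjusted p 0.00031). Kera, the corneal proteoglycan keratocan, was 0.698, 0.87, 0.269 and 0.916 in DW and 4.29, 2.28, 1.98 and 2.01 in SW females (change -1.08, limma adjusted p 0.000317). Rspo4, a secreted enhancer of Wnt signalling, was 0.421, 0.499, 0.19 and 0.236 in DW and 2.37, 2.48, 1.16 and 1.4 in SW females (change -1.07, limma adjusted p 0.000345). Hc and Kera were still called without animals 82 and 83 (limma adjusted p 0.0174 and 0.0139). The edgeR test called none of these 7 genes, with adjusted p 0.37 for Elf3, 0.14 for Slc5a5, 0.283 for Sprr1a, 0.282 for Ido1, 0.154 for Hc, 0.231 for Kera and 0.142 for Rspo4.

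The male values at p28 were low for these genes. Luminal genes summed to 81 to 101 in DW and 89.1 to 151 in SW males, and the list's median change in males was -0.08. The sex by weaning interaction was called for 3 of 16005 genes (0.0187%), and 815 were below 0.05 before adjustment. These were Pak6, a p21-activated kinase, by -0.67 (limma adjusted p 0.015), Proc, the anticoagulant protein C, by -0.63 (limma adjusted p 0.0237), and Hc by -1.21 (limma adjusted p 0.041). Pak6 was 0.77, 0.666, 0.783 and 0.633 in DW and 1.89, 1.51, 1.77 and 1.92 in SW females, with mean ± SD (n = 4) of 0.0983 ± 0.0607 in DW and 0.117 ± 0.0456 in SW males. Proc was 0.394, 0.515, 0.308 and 0.227 in DW and 1.21, 1.16, 1.1 and 1.52 in SW females, and 0.0244 ± 0.0235 and 0.0955 ± 0.0428 in males (SD, n = 4). Hc was 0.6 ± 0.166 in DW and 0.571 ± 0.2 in SW males (SD, n = 4). In the 3 genes no DW female reached an SW female. The edgeR test did not call the change between DW and SW females in Pak6, Proc or Hc (edgeR adjusted p 0.189, 0.173 and 0.154). The male values of these 3 lie where the log2(value + 1) scale understates changes. By edgeR the interaction had 0 calls and 840 genes below 0.05 before adjustment, and by limma with a pseudocount of 0.1 it had 0 and 681. For Kera and Rspo4 the interaction had a limma adjusted p of 0.072 and 0.072, for Cldn3 0.285 and for Gata3 0.53. A difference between the sexes was thus not called for these 4.

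**Figure D3:**
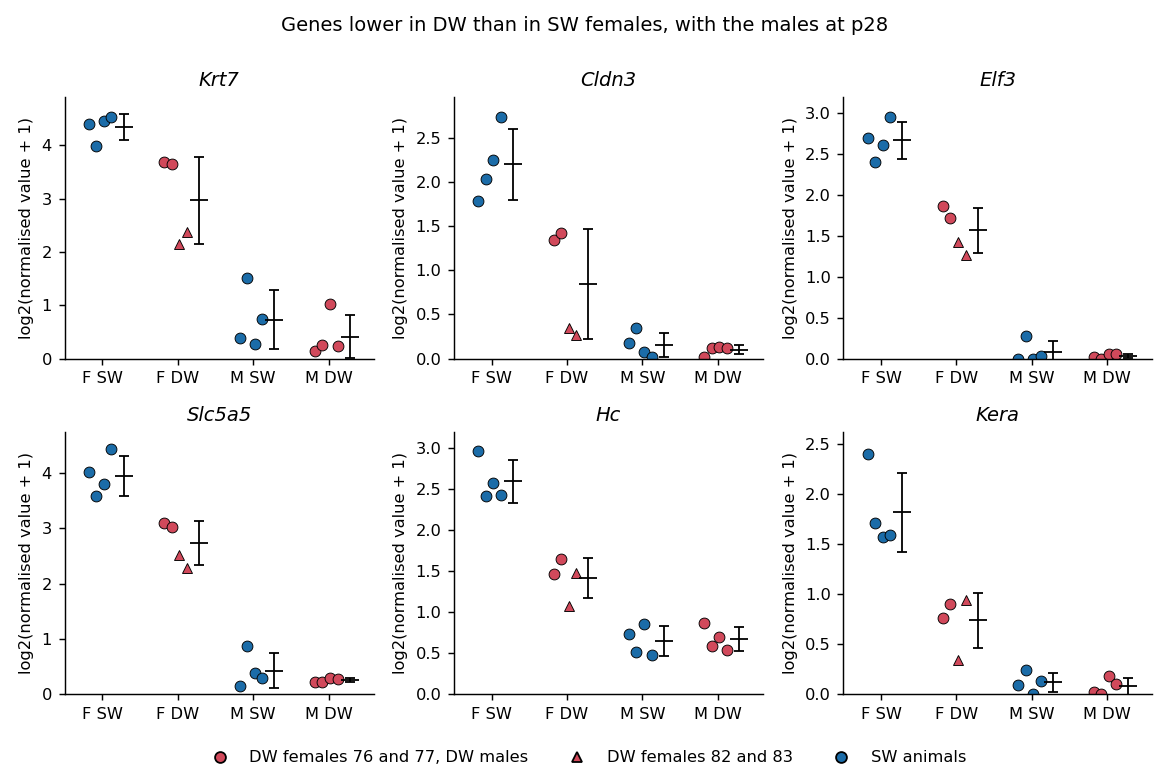
Points are single animals at p28 (log2 of the normalised value + 1, vertical), females and males after SW and DW, with mean and SD of each group of 4. In all 6 genes the 4 DW females lie below the 4 SW females, and the males of both groups lie lower than the SW females.

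Genes that make fatty acids from glucose had mostly lower values in DW females and few calls. Of 18 genes of de novo lipogenesis, 1 was called lower and 0 higher, 5 lay lower without overlap (against 0.812% and 3.52% of tested genes), and the median change was -0.42 (-0.47 in 76 and 77, -0.32 in 82 and 83). In males it was -0.42. The called gene was Slc25a1 (chromosome 16, 17743087 to 17746083), the carrier that exports citrate from mitochondria as the carbon source. It was 987, 833, 659.5 and 463 in DW and 1437, 1856, 1272 and 1712 in SW females, and 668 ± 61.7 (SD, n = 4) at p21. The SW mean was 2.13 times the DW mean (change -1.13, SE 0.20, limma adjusted p 0.00586, edgeR 0.0135), and the pairs changed by -0.78 and -1.49. Fatty acid synthase (Fasn) was 6448, 7043, 5940.4 and 3554 in DW and 7790.1, 11008, 8116 and 15145 in SW females, free of overlap but not called (limma adjusted p 0.177). The transketolase Tkt and 6-phosphogluconate dehydrogenase Pgd of the pentose phosphate route, which supplies NADPH, had changes of -0.90 (-0.61 and -1.19 by pair) and -0.60 (-0.48 and -0.71), without overlap (limma adjusted p 0.157 and 0.164). Mlxipl (ChREBP), the sugar-sensing regulator of these genes, was 291, 309.6, 186 and 117 in DW and 391, 321, 363 and 444 in SW females, also without overlap (limma adjusted p 0.0584). For other enzymes the 2 pairs parted. Acly (ATP citrate lyase) lay -0.98 from the SW mean in 76 and 77 and -0.13 in 82 and 83. Acaca (acetyl-CoA carboxylase) lay -0.75 and 0.02 from it, and malic enzyme (Me1) -1.12 and 0.23. Srebf1, the insulin-driven regulator, was 145, 189, 147 and 79.9 in DW and 151, 167, 149.8 and 199.9 in SW females, with overlap.

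Of 21 elongases, desaturases and partner enzymes, Elovl3 was called lower and 5 lay lower without overlap, against the same shares of all genes. Elovl3 (chromosome 19, 46120336 to 46124133), which extends fatty acids and marks thermogenic fat, was 2.1, 2.52, 1.99 and 1.31 in DW and 13.6, 6.68, 3.09 and 9.58 in SW females. The DW values were close together and SW female 75 was the nearest to them (pair changes -1.34 and -1.67, limma adjusted p 0.0368, edgeR 0.0396). Elovl6 was 381, 424, 729.7 and 616 in DW and 1028, 1009, 662 and 972 in SW females, where only 82 lay above the lowest SW female (limma adjusted p 0.229). The desaturase Scd1 was 29924, 36783, 31400.0 and 28863 in DW and 30299, 36352, 24565 and 52230.5 in SW females, with overlap (change -0.13, limma adjusted p 0.89). Ucp1, the heat-producing uncoupler of beige and brown fat, was 122, 133, 203 and 124 in DW and 175, 179, 76.3 and 116 in SW females, also with overlap. Of 17 thermogenic genes, Elovl3 was the 1 called, lower, against 0.812% of tested genes. Agpat2 of triglyceride assembly was 539.9, 547, 500.4 and 297 in DW and 679, 906, 626 and 871 in SW females, without overlap and not called (limma adjusted p 0.104).

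Genes of other roles fell too. Odad4, a docking factor of ciliary dynein, was 7.8, 7.57, 11.2 and 4.79 in DW and 27.5, 19.2, 15.4 and 21.2 in SW females, with pair changes of -1.30 and -1.35 (limma adjusted p 0.028, edgeR 0.0627). Adprhl1, a gene best known from heart muscle, was 1.09, 0.916, 0.3 and 1.08 in DW and 6.2, 4.61, 2.01 and 5.12 in SW females (limma adjusted p 0.0215, edgeR 0.103). Serpina3k, a protease inhibitor of a family of close copies, was 0.573, 0.499, 0.308 and 0.434 in DW and 2.53, 1.71, 2.19 and 2.26 in SW females, 4.79 times as high in SW by means (limma adjusted p 0.00561, edgeR 0.0135). Mmp14, a membrane protease that remodels matrix, was 93.6, 118, 67.2 and 68.4 in DW and 178, 156, 123 and 128 in SW females (change -0.77, limma adjusted p 0.034, edgeR 0.0799, GC-corrected 0.0656). The major urinary proteins, pheromone carriers made under growth hormone, are near-identical genes whose shared reads make single values uncertain. Of 20 tested, Mup2, Mup14 and Mup15 were called lower and 6 lay lower without overlap (against 0.812% and 3.52% of tested genes), and edgeR called Mup14 alone. Mup15 was 26.5, 19.9, 15.4 and 22.3 in DW, 88.3, 45, 56.4 and 64.9 in SW and 3.9 ± 2.34 (SD, n = 4) in p21 females (change -1.54, limma adjusted p 0.032, edgeR 0.123). The family's median change was -0.90 in 76 and 77 and -0.09 in 82 and 83. Mup19, not called, was 1.34, 1.13, 4.7 and 4.41 in DW and 4.24, 3.06, 3.93 and 5.21 in SW females, low in 76 and 77.

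**Figure D4:**
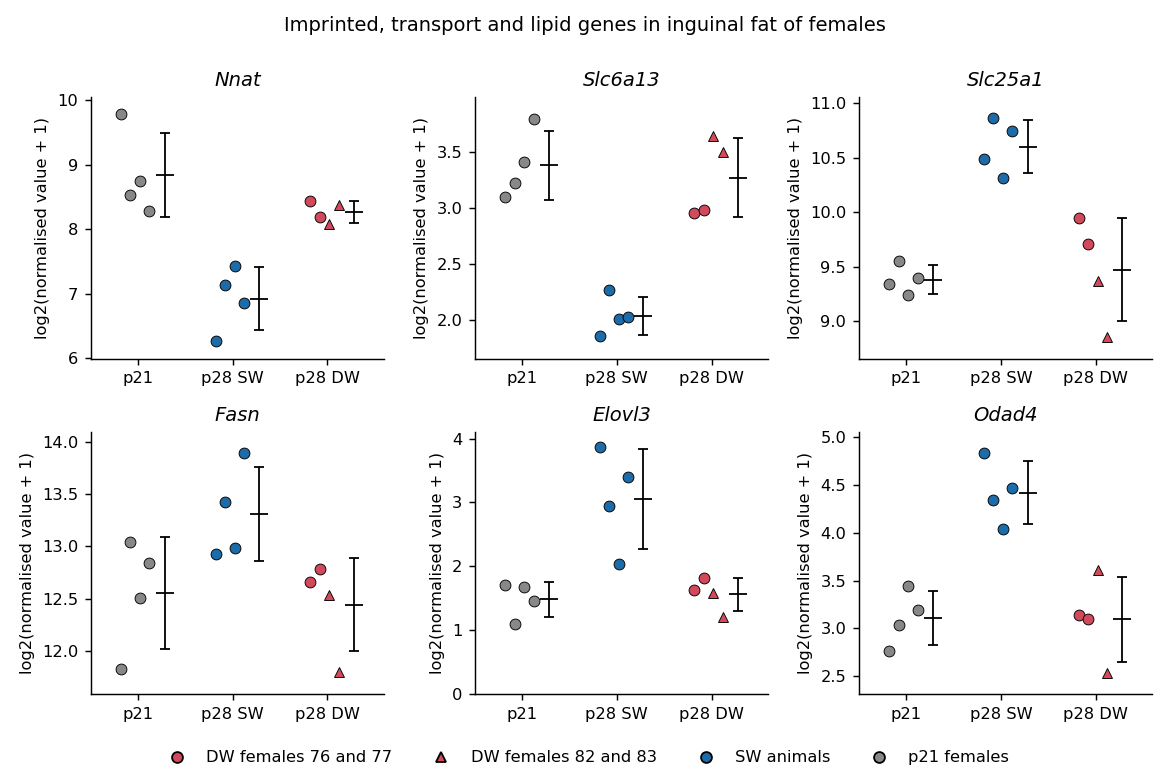
Points are single females (log2 of the normalised value + 1, vertical) at p21, p28 SW and p28 DW, with the mean and SD of each group of 4. Nnat and Slc6a13 are higher in all DW than in all SW animals, and Slc25a1, Fasn, Elovl3 and Odad4 are lower, with SW female 75 lowest of its group in Elovl3 and Odad4.

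Skeletal muscle genes varied widely within both groups. Of 36 tested, 0 were called and 2 lay lower without overlap (against 0.812% called lower and 3.52% lower without overlap over all tested genes). All 36 had negative changes, with a median of -2.26. Their sum was 383, 203, 118 and 3414 in DW and 2048, 3001, 717 and 5165 in SW females: 3 DW animals lay below every SW animal and DW female 83 lay above 3 of them. Acta1, skeletal actin, was 16.2, 5.08, 0.775 and 143 in DW and 106, 242, 37.3 and 428 in SW females (limma adjusted p 0.238). In males the sums were 587 to 10472 in DW and 773 to 10828 in SW. The part of muscle in the other results was not tested, and the fit with tissue scores, which also holds the luminal score, cannot settle it. Collagen genes split by pair: 28 of 33 lay above the SW mean in 76 and 77 and 5 of 33 in 82 and 83, and 0 were called. Col1a1, the main fibrillar collagen, was 2110.0, 3118, 1111 and 915 in DW and 1727, 2189.8, 1504 and 1998 in SW females. For adipocyte, adipose progenitor, growth hormone and IGF1, vessel and lymphatic endothelium, MHC class II, clock, glucocorticoid, immediate early, respiratory chain and fatty acid oxidation genes 0 members were called in either direction. Over all tested genes 0.462% were called higher and 0.812% lower.

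**Figure D5:**
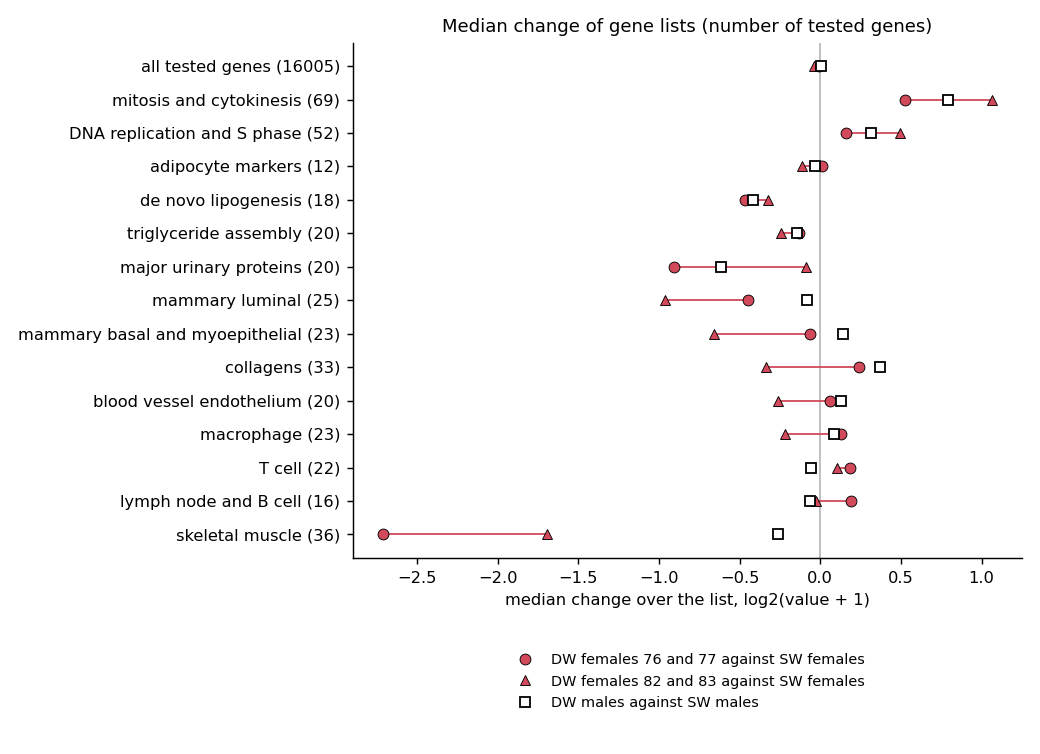
Median change of each gene list on the log2(value + 1) scale (horizontal) for DW females 76 and 77 (circles) and 82 and 83 (triangles), each against the 4 SW females, and for DW against SW males (squares), with the number of tested genes in brackets. The 2 pairs are on the same side of 0 for mitosis, replication, lipogenic, urinary protein, mammary and muscle genes and on opposite sides for collagen, endothelial and macrophage genes.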

How the data were processed

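Poly(A) RNA of inguinal fat was sequenced from 24 mice in 6 groups of 4, and the 8 females at p28 are compared here. The submitters' processing notes name fastp, HISAT2, featureCounts, DESeq2 1.38.3 and the mm10 build, with no role or order. The deposited table gives 1 normalised value per gene and sample, a signal that the authors scaled between libraries, and, for each of their comparisons, log2 fold changes and p-values labelled as adjusted. Of its 16208 rows, 90 repeated a gene and were dropped, leaving 16118 genes, and 0 value columns could not be matched to a sample. Low values are whole multiples of 1 step per library, from which read counts were recovered (100% whole within 0.01 of a read). Gene positions are printed as deposited. Of 15881 genes matched by symbol to RefSeq GRCm38.p6, 1.10% share a start or end with it, so their build is not given in the sources used here.

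Genes with enough reads (edgeR filterByExpr, minimum 10) were tested on log2(value + 1) with limma 3.58.1 (trend, R 4.3.3) in 1 model of 6 groups with 18 residual degrees of freedom. P-values were adjusted by Benjamini-Hochberg over 16005 genes, and "called" means an adjusted p under 0.05. They set a change against a spread between animals that is pooled over the 6 groups. The median SD of a gene on the log2(value + 1) scale was largest in DW females, at 0.23, against 0.15 in SW females and 0.11 in DW males. Litters are not labelled, so any animals of 1 litter were counted as independent replicates. Alternatives used edgeR 4.0.16 and DESeq2 1.42.0 on recovered reads, a pseudocount of 0.1, no filter, fewer samples, sample weights and covariates. A correction for transcript GC content (lowess, span 0.3, values for 99.9% of tested genes) was added after seeing the data. On simulated reads, limma recovered 124 of 200 genes given a log2 change of 1 among 16005, with 5 false calls, and edgeR recovered 120, with 4. The simulated reads had 1 mean and 1 spread per gene apart from the set changes. They held neither the parting of the 2 DW pairs nor the GC shift, so their false calls do not carry over to the real comparison. No replicates were merged. Named genes are list members, the called genes without overlap and of mean value at least 1 that ranked in the top 15 of either direction by the smaller change of the 2 DW pairs, and those called for the interaction. Some named genes are not reported here. The members and lists were chosen with earlier results of these data known. Promoter sequences are the first entry per gene in the RefSeq table.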

Additional observations from a re-analysis of the deposited data

Results flagged for a closer look

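In groups of 4 animals, a value was singled out where its gap to the nearest other exceeded Dixon's 95% critical share of the range. This was met in 14 of 314 groups of values tested (4.46%), and chance alone gives about 1 in 20. Values are log2(value + 1). DW female 83 was low in Tkt, at 9.34 against 10.3 to 10.5 in the other 3, and also in Pgd (8.68 against 9.20 to 9.29) and Agpat2 (8.22 against 8.97 to 9.10). Its mean over the triglyceride assembly genes was 6.19 against 6.43 in the other 3. DW female 82 was high in genes of branched-chain amino acid breakdown (6.65 against 6.46 to 6.49), and DW female 76 in the milk protein gene Csn2 (0.281 against 0.0848 to 0.105).

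Among SW females, animal 73 was high in Kera (2.40 against 1.57 to 1.71) and in the mitotic kinase gene Pbk (1.87 against 1.38 to 1.45). Animal 74 was high in Esr1 (6.46 against 5.92 to 6.00), had a lower mean over luminal genes (3.62 against 3.89 to 3.92) and had fewer genes detected (15972 against 16053 to 16066). Animal 75 was low in Elovl6 (9.37 against 9.93 to 10.0) and over the elongase and desaturase genes (5.05 against 5.35 to 5.40). Animal 81 was high over xenobiotic metabolism genes (4.16 against 3.92 to 3.93).

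Limma's interaction test of delayed weaning with sex, on the log2(value + 1) scale, called 3 genes. The female change minus the male change was -0.67 for Pak6, -0.63 for Proc and -1.21 for Hc, each with its highest values in SW females. In males these genes were low, where this scale understates changes: Proc averaged 0.0244 in DW and 0.0955 in SW males. EdgeR, and limma with a pseudocount of 0.1, called 0 genes for the interaction.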

How the results depend on the processing

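The number of genes called between DW and SW females, 204, rested on animals and on the model. It was 71 by edgeR with TMM, 61 by edgeR with DESeq2's size factors, 63 with a pseudocount of 0.1, 1 in a fit of the 8 females alone, 16 with the 12 females, 541 with sample weights, 8 with tissue scores as covariates and 122 with the run of animal numbers as covariate. Leaving out 1 animal at a time gave 45 (without DW 82) to 1996 (without DW 76), with 871 without DW 77, 48 without DW 83, and 92 to 123 without 1 SW female. Without DW 82 and 83 it was 7, also with GC-corrected values, and without DW 76 and 77 it was 5941. For the counts by run that follow, only p28 females outside the run were left out. All males and p21 females stayed in these fits. Among p28 females, animal numbers 73 to 80 alone gave 11. Numbers 81 to 87 alone gave 4376, but there 1 SW female stands against 2 DW females and is assumed to vary like the other groups. DESeq2 (295), limma with TMM (178), no filter (200) and GC correction (194) stayed within 1.5 times. The cause of these moves was not tested.

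For the interaction, 3 genes, the count was 0 by edgeR with TMM, 0 with DESeq2's size factors, 0 with a pseudocount of 0.1, 0 with tissue covariates, 0 with GC correction, 0 without DW 82 and 83, with or without that correction, and 0 for animal numbers 73 to 80. It was 1 by DESeq2, 1 with the run covariate, 0 to 8 leaving out 1 animal, 3539 without DW 76 and 77 and 2775 for numbers 81 to 87. Of the 48 called genes that were followed one by one, none changed direction under any of the 25 alternatives, but 23 lost their call by edgeR with TMM, 47 in the 8 females alone, 41 with tissue scores and 42 without DW 82 and 83. The interaction counts by animal number set the p28 females of that run against the p28 males of every number. No paired analysis was possible because no animal number is shared between groups.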

Other observations

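In 2 genes, picked after their values were seen, the DW females differed widely among themselves. Lars2, the mitochondrial leucyl-tRNA synthetase, was 169, 4237, 2241 and 1712 in DW females 76, 77, 82 and 83 and 287, 409, 217 and 182 in SW females 73, 74, 75 and 81, high in 3 of 4 DW animals (change 2.30, limma adjusted p 0.0503, edgeR 0.0135, GC-corrected limma 0.0499). Rpl22l1, a ribosomal protein paralogue, was 11, 15.5, 131 and 128 in DW and 16.5, 12.4, 22.8 and 13.3 in SW females, high in 82 and 83 alone (limma adjusted p 0.22).

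The authors' deposited table labels a column of the comparison of DW with SW females as adjusted p-values. It holds 16108 values, 16105 of them distinct, of which 2730 lie under 0.05. After a Benjamini-Hochberg adjustment of that column 238 would lie under 0.05. Adjusted values of this kind usually share many ties, and the table's text does not say how the column was made.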
